A study of Mus musculus with 18 samples.

Results

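Pck1, G6pc, Fbp1, Pcx, Slc37a4, Ppargc1a, Tat and Creb3l3 encode enzymes of hepatic glucose synthesis, the transporter that serves the last step, an enzyme that feeds amino acid carbon into the route, and regulators of the route's genes. They were picked by symbol from the deposited expression table. All 8 were found among its 18946 genes, and all 8 passed the filter on low values that left 13895 genes for testing. Their RNA was measured by RNA sequencing after depletion of ribosomal RNA in livers of C57BL/6J males at 2 ages, a widely used inbred strain. The 8 Young mice were 6.18 months old and the 10 Old mice 19.76 months old per the labels, whose protocol and design texts differ from each other in the age they give for the Old mice. Both groups were fasted overnight and then went through a hyperinsulinemic-euglycemic clamp, an insulin infusion during which infused glucose holds blood glucose level. Every liver was taken right after that clamp. There is therefore no liver from either age without infused insulin, and each comparison is between ages under insulin. Each library is 1 mouse. RNA was extracted with the AllPrep kit in 3 Young and 5 Old mice and with the RNeasy kit in 5 Young and 5 Old mice.

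Gluconeogenesis makes glucose from lactate, amino acids and glycerol, and in a fasted animal the liver does most of it. Pyruvate carboxylase (Pcx) turns pyruvate into oxaloacetate inside the mitochondrion, and cytosolic phosphoenolpyruvate carboxykinase (Pck1) turns oxaloacetate into phosphoenolpyruvate. Fructose-1,6-bisphosphatase (Fbp1) reverses a later irreversible step of glycolysis, and the glucose-6-phosphatase catalytic subunit (G6pc) releases free glucose inside the endoplasmic reticulum, to which the transporter Slc37a4 brings its substrate. Fasting and glucagon raise transcription of several of these genes through cyclic AMP, CREB with its coactivator Crtc2, and the coactivator PGC-1alpha (Ppargc1a), while insulin lowers it, in part by moving the transcription factor Foxo1 out of the nucleus. Tyrosine aminotransferase (Tat) starts the breakdown of tyrosine and is a classic glucocorticoid- and glucagon-induced liver gene. Creb3l3 encodes CREBH, a transcription factor held in the endoplasmic reticulum membrane that is released by proteolysis in fasting and stress.

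The promoter windows of Pck1, G6pc and Ppargc1a are shown because these are an early enzyme of the route, its last enzyme and their coactivator, whose levels are compared between ages here. RefSeq promoter entries (GRCm38.p6) were matched for 8 of 8 genes, over 12 annotated start sites. Each sequence is the 250 bases before the annotated start, read 5′ to 3′ along the gene. Capitals mark exact matches to ACGTCA, the core letters of the cyclic AMP response element, to TGTTTTG, the letters of the insulin response sequence, or to TATAAA, the TATA box. The Pck1 window is chr2:173152823-173153072 on the plus strand, that of G6pc is chr11:101367466-101367715 on the plus strand, and that of Ppargc1a is chr5:51567726-51567975 on the minus strand.
Pck1: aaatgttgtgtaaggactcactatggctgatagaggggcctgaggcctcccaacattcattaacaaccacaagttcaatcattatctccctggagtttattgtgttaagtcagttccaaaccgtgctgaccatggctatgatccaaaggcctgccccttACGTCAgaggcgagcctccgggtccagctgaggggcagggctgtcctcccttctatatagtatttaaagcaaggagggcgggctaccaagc
G6pc: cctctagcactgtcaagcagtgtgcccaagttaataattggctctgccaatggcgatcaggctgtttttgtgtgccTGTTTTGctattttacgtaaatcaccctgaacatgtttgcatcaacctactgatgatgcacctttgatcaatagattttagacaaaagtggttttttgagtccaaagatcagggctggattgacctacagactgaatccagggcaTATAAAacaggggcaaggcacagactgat
Ppargc1a: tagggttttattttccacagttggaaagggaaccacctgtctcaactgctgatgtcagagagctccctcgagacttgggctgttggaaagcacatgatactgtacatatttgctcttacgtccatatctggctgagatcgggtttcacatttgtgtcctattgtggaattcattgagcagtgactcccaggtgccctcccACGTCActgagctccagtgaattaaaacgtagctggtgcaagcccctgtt

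ACGTCA stands at -91 to -86 in Pck1 and at -50 to -45 in Ppargc1a, counted from the start site. It is also found on the other strand before start sites of Slc37a4, as the same bases in overlapping windows. TGTTTTG stands at -174 to -168 in G6pc, with TATAAA at -29 to -24, and TGTTTTG is found on the other strand before a start site of Creb3l3. TATAAA is also found at -32 to -27 before a start site of Slc37a4. Searched on both strands in 32851 promoter windows of 250 bases, ACGTCA was found in 6.469%, TGTTTTG in 5.561%, TATAAA in 12.368% and the forkhead motif GTAAACA in 3.166%. No window of the 8 genes held GTAAACA. These are matches of letters, and binding was not measured.

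The deposited unit is TPM, reads per gene length scaled to the same total in each library, and TPM was here divided by a composition factor per library (scaled TPM). Read totals recovered from the table lay between 85790735 and 127487820 per library. Old replicate 14 stood apart: its median correlation with the other libraries was 0.935, against 0.967 to 0.985 for the others. The summed level of 8 markers of pericentral hepatocytes, those around the central vein, was 2134 scaled TPM in it, 8762 to 17523 in the other Old livers and 15284 to 21434 in Young livers. For 8 markers of periportal hepatocytes, the zone where glucose synthesis is strongest, the sums were 5215 in Old replicate 14, 9255 to 12476 in the other Old livers and 9769 to 12048 in Young livers. The 4 hepatocyte markers found in the table summed to 140513 scaled TPM in Old replicate 14, the highest of all livers. Their sums were 82352 to 120605 in the other Old livers and 77141 to 112811 in Young livers. The 1 pancreatic acinar marker found stood at 102 scaled TPM in Old replicate 14, 10.9 to 16.6 in the other Old livers and 10.5 to 14.9 in Young livers. Sums of endothelial (136) and cholangiocyte (87.8) markers were also highest in Old replicate 14, and the 1 adipocyte marker found (0.447) was lowest. Its Kupffer cell, stellate cell and lymphocyte sums lay within the range of the other livers. Many results below are also given without Old replicate 14, and the part of these markers in the results was not tested. In bulk RNA, fewer cells of a zone and less RNA per cell cannot be told apart.

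In Young livers the mean levels ran in the order Pck1, Fbp1, Tat, G6pc, Pcx, Creb3l3, Slc37a4 and Ppargc1a, from 5509 ± 703 down to 3.10 ± 0.764 scaled TPM (SD, n = 8). Old livers kept that order of means, from 2925 ± 869 down to 2.16 ± 0.353 scaled TPM (SD, n = 10). The coactivator was thus the least abundant of the 8 RNAs per length. In Young livers the ranges of Fbp1 and Tat overlapped, as did those of Tat and G6pc and of Pcx and Creb3l3. Among neighbours in the Old order, the ranges of Pck1 and Fbp1, Tat and G6pc, G6pc and Pcx, and Pcx and Creb3l3 overlapped. Pck1 exceeded Fbp1 in 8 of 8 Young and in 9 of 10 Old livers, Old replicate 14 being the exception.

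Old livers had less Pck1 RNA than any Young liver, and of the 8 genes this was the one that passed the test. G6pc, Ppargc1a and Tat were each below the Young median in 10 of 10 Old livers, without passing it. Fbp1, Pcx and Slc37a4 had overlapping levels and differences near 0. The share of all tested genes without overlap, or wholly on 1 side of the Young median, is not given here. These positions are therefore description only. Over the 8 genes, 1 was called lower and 0 higher in Old livers (limma, adjusted p under 0.05), where 2.47% of all tested genes were called lower, 2.44% higher and 4.91% in either direction. The whole-table split was 339 higher and 343 lower, and 341 and 188 when no composition factor was applied. At an unadjusted p under 0.05 there were 4 of the 8, where 3254 of all tested genes (23.4%) were. The median log2 difference (Old minus Young, on log2(scaled TPM + 0.5)) was -0.28 over the 8 genes, 7 of them negative, and 0.00 over all tested genes. With Old replicate 14 left out, 2 of the 8 were called lower. That fit also called more genes over the whole table than the 343 lower and 339 higher with all libraries. Of 13895 tested genes it called 510 higher, and its number of lower genes lay between 343 and 510.

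**Figure D1:**
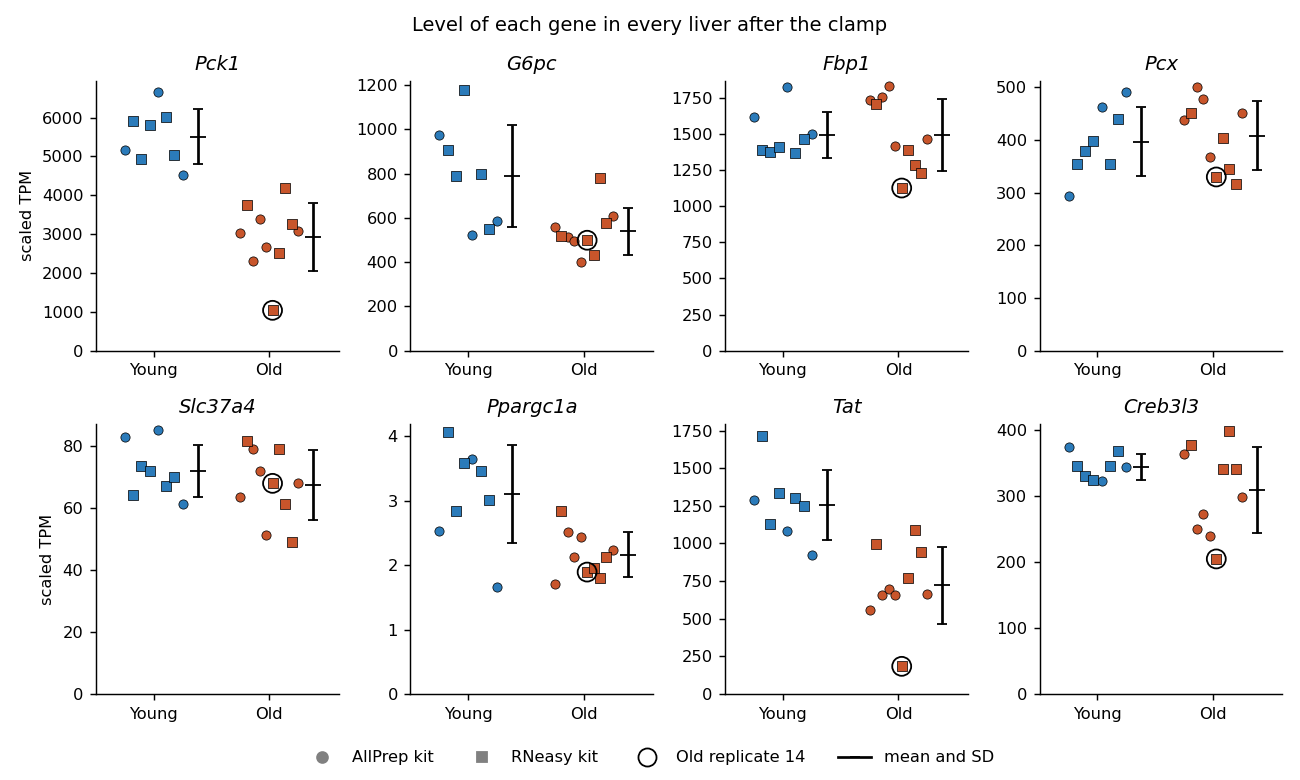
Level of each of the 8 genes in every liver (vertical axes: scaled TPM from 0; circles, AllPrep kit; squares, RNeasy kit; ring, Old replicate 14; bars, mean and SD of 8 Young and 10 Old livers). For Pck1 every Old point lies under every Young point, and for Tat, Creb3l3 and Fbp1 the ringed library is the lowest of all.

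Pck1 commits oxaloacetate to glucose synthesis and was the most abundant of the 8 RNAs. In Young livers its level ranged from 4523 scaled TPM through a median of 5490 to 6658, and in Old livers from 1039 through 3056 to 4188. The groups did not overlap. Old replicate 14 was lowest, and the next lowest Old liver had 2316 scaled TPM. On the log2 scale the difference was -0.99 ± 0.21 (SE), with a 95% interval from -1.43 to -0.55 and a limma adjusted p of 0.0137. Without Old replicate 14 it was -0.80 (limma adjusted p = 0.00148). Leaving out each of the 18 libraries in turn gave -1.07 to -0.80, with limma adjusted p-values from 0.00148 to 0.0368.

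Pck1 was lower in Old livers with each extraction kit, though neither kit alone gave a call. Among AllPrep livers the Young mean was 5450 ± 1095 scaled TPM (SD, n = 3) and the Old mean 2896 ± 411 (SD, n = 5). Among RNeasy livers these were 5545 ± 511 and 2954 ± 1236 (SD, n = 5 each). The log2 difference was -0.91 with AllPrep (limma adjusted p = 0.0583) and -1.05 with RNeasy (0.356), or -0.71 with RNeasy without Old replicate 14 (0.0830). Body weight moved with age: Young mice weighed 26.6 to 34.8 and Old mice 35.1 to 55 in the labels' units, with no overlap. With weight as a further term Pck1 stood at -0.84 and missed the threshold (limma adjusted p = 0.373), so age and body weight cannot be told apart.

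G6pc, the catalytic subunit that frees glucose, had a wide spread among Young livers. Its level ran from 522 scaled TPM through a median of 793 to 1179 in Young and from 401 through 516 to 780 in Old livers. The groups overlapped: 6 of 10 Old livers lay below the lowest Young liver and 10 of 10 below the Young median. At -0.49 ± 0.15 (SE) the log2 difference did not pass (limma adjusted p = 0.0720). It passed without Young replicate 12 (limma adjusted p = 0.0479) and without Old replicate 16 (0.0397), the library with the most G6pc among Old livers. Leaving out each of the 18 libraries in turn gave -0.57 to -0.41, with limma adjusted p-values from 0.0397 to 0.151. The table gives no Ensembl identifier for this gene.

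Slc37a4, which carries glucose 6-phosphate to that enzyme, was far less abundant per length. Young livers held 61.5 to 85.3 scaled TPM with a median of 71.0, and Old livers 49.0 to 81.7 with a median of 68.1. The groups overlapped almost fully, with 3 Old livers below the lowest Young one. Its log2 difference was -0.11 ± 0.10 (SE, limma adjusted p = 0.528), with a 95% interval from -0.33 to 0.10. The ratio of G6pc to Slc37a4 within a liver, which does not depend on scaling between libraries, ran from 6.12 to 16.4 in Young and from 5.47 to 12.7 in Old livers.

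Fbp1 and Pcx, enzymes in the middle and at the entry of the route, had nearly equal means at the ages compared. Fbp1 ranged from 1368 scaled TPM through 1438 to 1825 in Young and from 1125 through 1439 to 1829 in Old livers. The Old range enclosed the Young one. The Fbp1 log2 difference was -0.05 ± 0.09 (SE, limma adjusted p = 0.785), with a 95% interval from -0.23 to 0.14, -0.01 without Old replicate 14, and 0.01 with no composition factor. Pcx ranged from 294 through 388 to 491 scaled TPM in Young and from 316 through 421 to 501 in Old livers. Here too the groups overlapped, with 0 Old livers below the lowest Young one and 1 above the highest. The Pcx log2 difference was 0.02 ± 0.10 (SE, limma adjusted p = 0.938), with a 95% interval from -0.20 to 0.24, 0.04 without Old replicate 14, and -0.08 without Young replicate 1, the Young liver with the least Pcx. Its sign also differed between kits, at 0.13 with AllPrep and -0.07 with RNeasy.

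Ratios within a liver set the fall of Pck1 beside the other enzymes without any scaling between libraries. Pck1 over Fbp1, in deposited TPM, ran from 3.02 through a median of 3.62 to 4.39 in Young and from 0.924 through 1.87 to 3.26 in Old livers. In 9 of 10 Old livers the ratio lay below the lowest Young value. Pck1 over Pcx ran from 9.21 to 17.6 in Young and from 3.15 to 12.2 in Old livers, with 8 of 10 Old livers below the lowest Young value. Pck1 over G6pc overlapped more, from 4.93 to 12.7 in Young and from 2.08 to 7.23 in Old livers. Old replicate 14 set each of these lowest Old values, and without it they were 1.32 over Fbp1, 4.62 over Pcx and 4.51 over G6pc. Only these values are given for the ratios, and they were not tested.

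Tat, which opens tyrosine breakdown, had a large difference and a wide spread. Young livers held 922 to 1715 scaled TPM with a median of 1267, and Old livers 183 to 1090 with a median of 682. Old replicate 14 was far below the rest, and the next lowest Old liver had 555 scaled TPM. In all, 7 of 10 Old livers lay below the lowest Young liver, and 3 overlapped the Young range. The log2 difference was -0.88 ± 0.26 (SE, limma adjusted p = 0.0574). Without Old replicate 14 it was smaller and passed, at -0.61 (limma adjusted p = 0.00263), and it also passed without Old replicate 6 (0.0462), without Old replicate 16 (0.0379) and in AllPrep livers alone (-0.75, 0.0378). Leaving out each of the 18 libraries in turn gave -0.96 to -0.61, with limma adjusted p-values from 0.00263 to 0.106.

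Ppargc1a, the coactivator, is a low-abundance RNA in these livers, yet its reads numbered 889 to 3199 per library. Its level ran from 1.66 scaled TPM through 3.23 to 4.07 in Young and from 1.70 through 2.12 to 2.84 in Old livers. The lowest liver of all was a Young one, replicate 13, so that 0 Old livers lay below the lowest Young liver although 10 of 10 lay below the Young median. The log2 difference was -0.40 ± 0.12 (SE, limma adjusted p = 0.0689). Without Young replicate 13 it was -0.51 and passed (limma adjusted p = 0.0134). It passed also with limma-voom on the recovered reads with composition factors (-0.51, adjusted p = 0.0375), a fit that adds no 0.5 TPM. Leaving out each of the 18 libraries in turn gave -0.51 to -0.34, with limma adjusted p-values from 0.0134 to 0.150.

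Creb3l3 was spread more widely in Old than in Young livers. It ranged from 322 through 344 to 374 scaled TPM in Young livers and from 205 through 320 to 399 in Old ones. The coefficient of variation was 5.53% in Young and 21.2% in Old livers, and this difference was not tested. Old livers lay on both sides of the Young range, 5 below it and 2 above it. The log2 difference was -0.17 ± 0.11 (SE, limma adjusted p = 0.380), -0.09 without Old replicate 14 (0.567), and 0.09 in RNeasy livers without Old replicate 14 (0.660). A test of whether the age difference depended on the kit called 0 of 13895 genes (587, or 4.22%, at an unadjusted p under 0.05) and 0 of the 8 genes at an unadjusted p under 0.05, the smallest being 0.102 for Ppargc1a. Without Old replicate 14 the same test gave Creb3l3 an unadjusted p of 0.0234 and a limma adjusted p of 0.538.

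**Figure D2:**
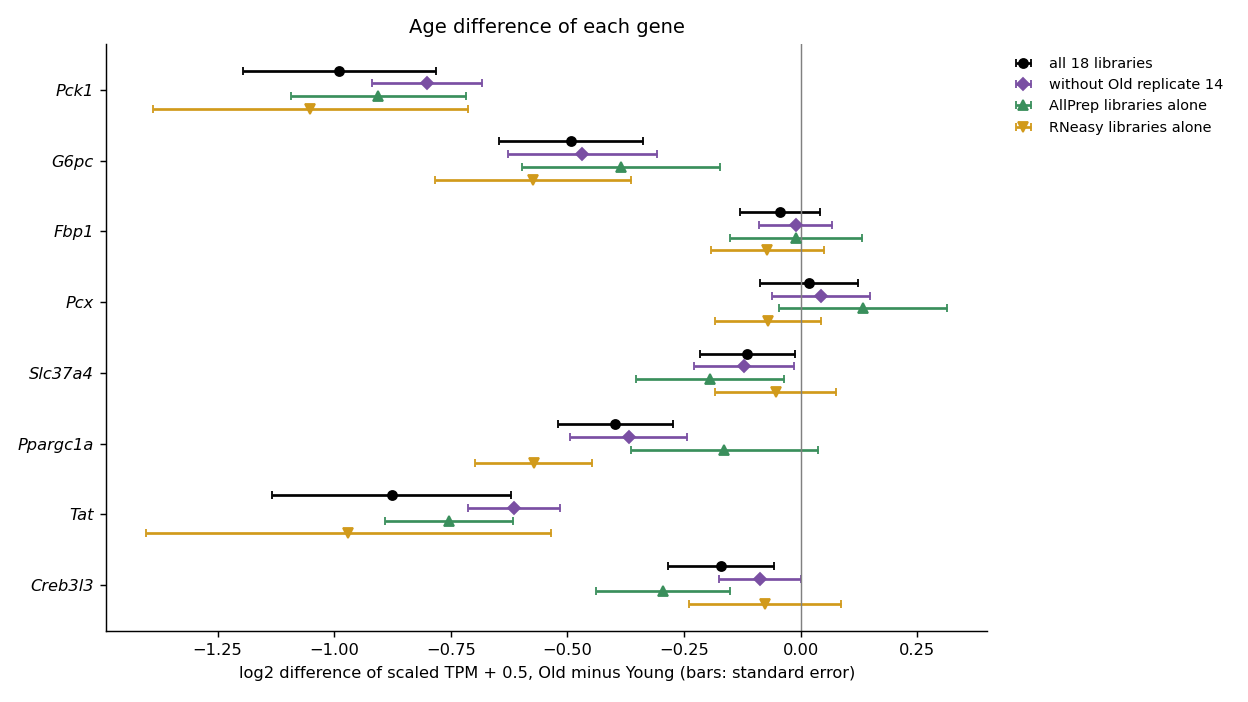
Log2 difference of each gene between ages (horizontal axis, Old minus Young on log2(scaled TPM + 0.5); bars, standard error) with all 18 libraries, without Old replicate 14, and with each kit alone. Pck1 stays between -1.05 and -0.80 in these 4 fits, Tat between -0.97 and -0.61, and Fbp1 and Pcx lie near 0.

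The other genes of the pathway were read from 10 lists of 71 genes, all in the table, of which 70 were tested. Of these, 2 rose and 4 fell with age (limma, adjusted p under 0.05), against the 2.44% and 2.47% of all tested genes given above. Their median log2 difference was -0.05, and 0.00 over all tested genes. Left without composition factors, the fit called 2 higher and 3 lower, Gcgr no longer among them. Without Old replicate 14 they were again 2 and 4, but Nr0b2 was not called (limma adjusted p = 0.0513) and Foxa2, a forkhead factor, was (0.43, 0.0415). None of the 6 was called with a single kit or with body weight as a term, though each kept its sign: the limma adjusted p-values were 0.0600 to 0.222 with AllPrep alone, 0.0883 to 0.526 with RNeasy alone and 0.309 to 0.697 with body weight.

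The list of hepatic glycolysis and its control had 1 of 5 members higher in Old livers and 0 lower, and 0 of its 4 enzymes were called. The called member, Gckr, is not an enzyme but an inhibitory regulatory protein. It ran from 45.6 through 64.2 to 87.8 scaled TPM in Young and from 54.6 through 74.9 to 104 in Old livers. The groups overlapped, with 8 of 10 Old livers above the Young median and 3 above the highest Young liver. It rose by 0.35 ± 0.08 on the log2 scale (SE, limma adjusted p = 0.0171) and was called in 18 of 18 fits with a library left out, and stood at 0.22 with body weight as a term. Pklr, the liver pyruvate kinase, stood at 0.54 and did not pass (limma adjusted p = 0.127), and at -0.09 with body weight as a term.

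**Figure D3:**
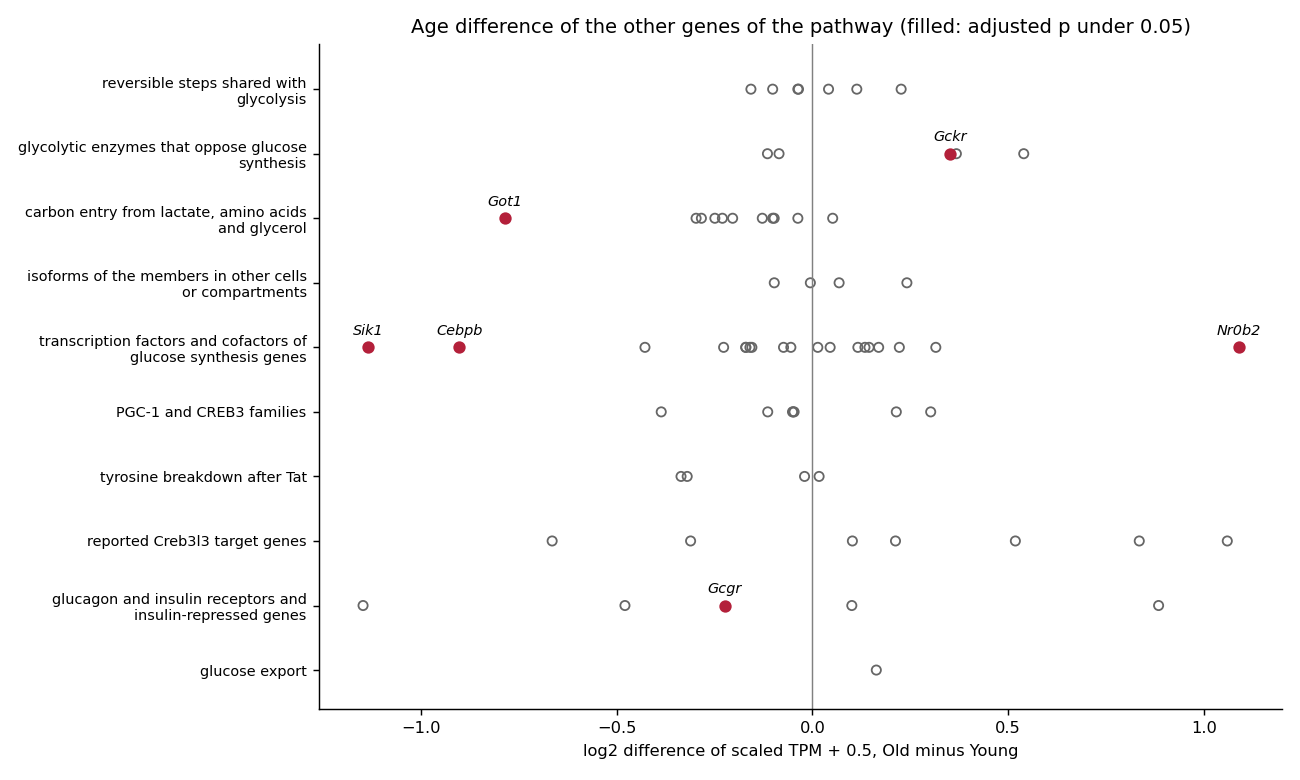
Log2 difference between ages (horizontal axis, Old minus Young on log2(scaled TPM + 0.5)) of 70 other genes of glucose synthesis and its control in 10 lists (rows), 1 point a gene. Filled points passed limma at an adjusted p under 0.05: Gckr and Nr0b2 to the right of 0, and Got1, Cebpb, Sik1 and Gcgr to the left.

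Transcription factors and cofactors of glucose synthesis genes had 1 of 19 members higher and 2 lower. Cebpb, a basic leucine zipper factor that binds promoters of gluconeogenic genes, ran from 86.2 through 97.1 to 122 scaled TPM in Young and from 33.8 through 55.8 to 85.9 in Old livers. Like Pck1, it had groups that did not overlap, narrowly, and the share of all tested genes of that kind is not given here. Cebpb fell by 0.90 ± 0.15 on the log2 scale (SE, limma adjusted p = 0.00375). Sik1, a cyclic AMP-induced kinase that restrains Crtc2, ran from 25.8 through 61.6 to 108 in Young and from 16.4 through 25.7 to 43.8 scaled TPM in Old livers. It fell by 1.14 ± 0.20 (SE, limma adjusted p = 0.00498), with 10 of 10 Old livers below the Young median and 5 below the lowest Young liver. Both were called in 18 of 18 fits with a library left out. Cebpb missed the threshold with AllPrep alone (-0.79, limma adjusted p = 0.0696), with RNeasy alone (-0.99, 0.147) and with body weight (-0.67, 0.309), as did Sik1 (-0.82, 0.152; -1.37, 0.0883; -0.87, 0.319).

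Nr0b2, the small heterodimer partner, a repressor that acts on Hnf4a and other receptors, rose by 1.09 ± 0.30 on the log2 scale (SE, limma adjusted p = 0.0475). It ran from 7.26 through 20.3 to 56.5 scaled TPM in Young and from 24.4 through 43.9 to 62.3 in Old livers, so the groups overlapped widely. It stayed called in 2 of 18 fits with a library left out, with the highest limma adjusted p, 0.108, without Young replicate 1. Factors most often named as direct drivers of Pck1 and G6pc did not pass: Foxo1 stood at -0.07 (limma adjusted p = 0.690), Crtc2 at -0.23 (0.196), Hnf4a at -0.15 (0.313) and Nr3c1, the glucocorticoid receptor, at 0.05 (0.730). Leaving Old replicate 14 out, these were -0.01 for Foxo1, -0.13 for Crtc2, -0.09 for Hnf4a and 0.06 for Nr3c1. Foxo1 stood at 0.11 with AllPrep alone and at -0.21 with RNeasy alone. RNA levels do not report where these proteins are or how they are modified.

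Genes for carbon entry from lactate, amino acids and glycerol had 0 of 11 members higher and 1 lower, with a list median of -0.20. Got1, the cytosolic aspartate aminotransferase that takes part in moving oxaloacetate between compartments, ran from 230 through 256 to 297 scaled TPM in Young and from 86.0 through 139 to 328 in Old livers. In 9 of 10 Old livers Got1 lay below the lowest Young liver, and the remaining one exceeded the highest Young liver. It fell by 0.78 ± 0.21 on the log2 scale (SE, limma adjusted p = 0.0393) and was called in 5 of 18 fits with a library left out, with the highest adjusted p, 0.0823, without Young replicate 10. The 7 enzymes of reversible steps shared with glycolysis had 0 called in limma, also 0 at an unadjusted p under 0.05, and log2 differences from -0.16 to 0.23.

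Isoforms of the 8 genes' products showed no call in limma and 0 of 4 at an unadjusted p under 0.05. Pck2, the mitochondrial counterpart of Pck1, stood at 0.24 (limma adjusted p = 0.555), or 0.00 without Old replicate 14, which held 11.4 scaled TPM of it against 1.77 to 3.70 in the other Old livers. Pck1 over Pck2, in deposited TPM, ran from 1872 to 2824 in Young and from 90.9 to 1846 in Old livers, without overlap. The lowest Old ratio was that of Old replicate 14, and the next was 915. Fbp2, the muscle form of fructose bisphosphatase, stood at -0.10 (limma adjusted p = 0.614) on a median of 0.701 scaled TPM in Young livers, and its sign differed between kits (-0.37 with AllPrep alone, 0.11 with RNeasy alone).

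The 5 receptors and insulin-repressed genes had 1 called lower and 0 higher, and 3 (Gcgr, Irs2 and Pdk4) reached an unadjusted p under 0.05. Gcgr, the glucagon receptor, fell by 0.22 ± 0.06 on the log2 scale (SE, limma adjusted p = 0.0397), from a Young median of 118 to an Old median of 91.7 scaled TPM. It missed the threshold when TPM was used as deposited (-0.17, limma adjusted p = 0.0929) and was called in 4 of 18 fits with a library left out, so this small difference is uncertain. With body weight as a term it was -0.10 (limma adjusted p = 0.697). Irs2, an adaptor of the insulin receptor, stood at -0.48 (limma adjusted p = 0.120), and Pdk4, a kinase that inhibits pyruvate dehydrogenase and is repressed by insulin, at 0.88 (0.135). Igfbp1, an insulin-repressed secreted protein, had 27.8 to 1332 scaled TPM in Old livers, the highest in Old replicate 14 and 268 in the next. Its log2 difference of -1.15 did not pass (limma adjusted p = 0.226), nor did -1.54 without that library (0.0513), and with body weight as a term it was 1.13. Slc2a2, the glucose transporter by which glucose leaves the hepatocyte, stood at 0.16 (limma adjusted p = 0.469), and at -0.35 with body weight as a term.

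Genes downstream of Tat and Creb3l3 had 0 called in limma. Of 4 enzymes of tyrosine breakdown after Tat, 1 (Hgd) reached an unadjusted p under 0.05, near the 23.4% of all tested genes that did. Hpd, the next enzyme, stood at -0.34 (limma adjusted p = 0.342), or -0.14 without Old replicate 14. Tat over Hpd, in deposited TPM, ran from 0.253 through 0.380 to 0.523 in Young and from 0.163 through 0.238 to 0.383 in Old livers, with 6 Old livers below the lowest Young one. Of 7 reported Creb3l3 targets, 2 (Apoa5 and Hamp) reached an unadjusted p under 0.05, again near that share. Fgf21, a fasting hormone, stood at 0.84 (limma adjusted p = 0.270), and its sign turned with the kit, at -0.19 with AllPrep alone and 1.60 with RNeasy alone. Of 7 tested relatives of Ppargc1a and Creb3l3, 0 were called and 2 (Creb3 and Creb3l1) reached an unadjusted p under 0.05, a share near that of all tested genes. Creb3l4 was below the filter and not tested.

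Within an age, few relations between the 8 genes passed a test. Of 56 correlations between pairs of them, 28 pairs at each age, 1 passed after Benjamini-Hochberg adjustment over the 56, by Pearson's r and by Spearman's rho. It joined Fbp1 and Pcx in Old livers, with r = 0.92 (permutation p = 0.00022, adjusted 0.0123) and rho = 0.92 (permutation p = 0.00038, adjusted 0.0213). Without the 2 Old mice farthest from the Fbp1 median, r was 0.90. In Young livers r was 0.23 for the same pair, and the difference between ages was not tested. The extraction kit moved with both genes in Old livers: Fbp1 was at 1638 ± 187 scaled TPM with AllPrep and 1347 ± 221 with RNeasy, and Pcx at 448 ± 50.7 and 369 ± 56.4 (SD, n = 5 each). With the kit means subtracted from both genes, their r was 0.86 in Old livers and no longer passed (exact permutation p = 0.00299 over orders within a kit, adjusted 0.0836 over the 56). In that form 1 of the 56 pairs passed, Pcx with Slc37a4 in Old livers, at r = 0.91 (exact permutation p = 0.000764, adjusted 0.0428) against 0.69 with the kit left in. This setting was chosen after seeing the data. Each kit holds 5 Old livers, under the 6 needed for a correlation within it.

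Pck1 and Tat followed each other in Old livers, less so without 1 library. Their r was 0.93 over 10 Old livers (permutation p = 0.0047, adjusted 0.0790), 0.67 without Old replicate 14 and 0.50 without the 2 mice farthest from the Pck1 median, so the relation rests on those samples. With the kit means subtracted it was 0.95 (exact permutation p = 0.0135, adjusted 0.151). The same held for Pck1 with Creb3l3, at 0.79 (permutation p = 0.00564, adjusted 0.0790) and 0.54 without the same 2 mice. In Young livers Pck1 varied with Ppargc1a, at r = 0.85 and rho = 0.81 (exact permutation p = 0.00481 and 0.0218), which did not pass after adjustment (0.0790 and 0.203). That r was 0.84 without the 2 farthest mice, and the pair had r = 0.17 in Old livers. With the kit means subtracted the Young value was 0.95 (exact permutation p = 0.0125, adjusted 0.151).

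**Figure D4:**
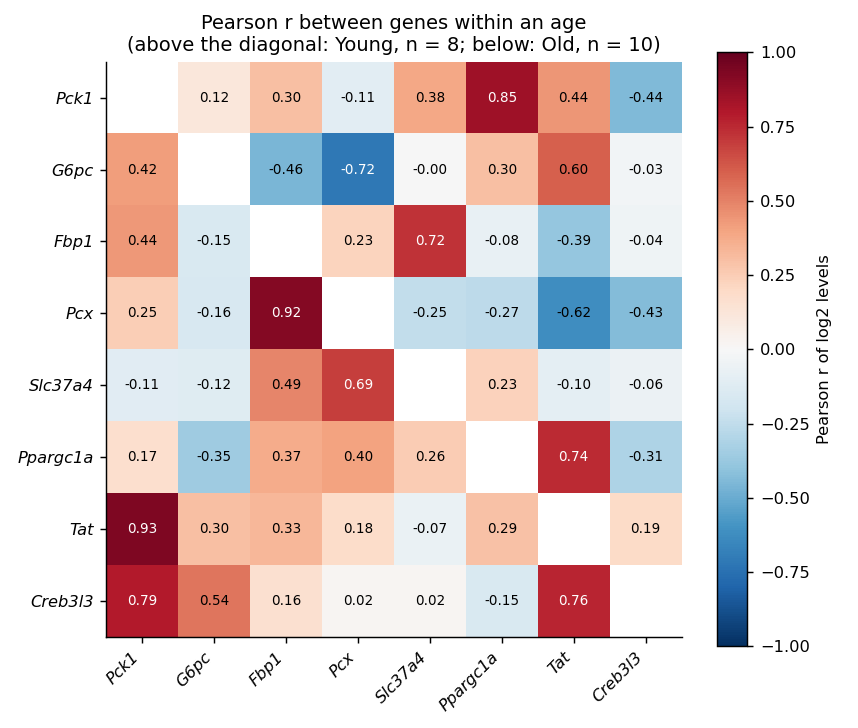
Pearson's r between each pair of the 8 genes on log2(scaled TPM + 0.5), above the diagonal over 8 Young and below it over 10 Old livers (colour scale from -1 to 1). Fbp1 with Pcx (0.92) and Pck1 with Tat (0.93) are the strongest pairs in Old livers, and Pck1 with Ppargc1a (0.85) in Young livers.

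The genes most like each of the 8 over the 18 libraries were listed after the mean of each age and kit group had been subtracted, among 8700 genes. This is a description across shared libraries. G6pc was closest to Nfil3, a repressor of the circadian system, with r = 0.95, also without Old replicate 14, and next to Ppp1r2 and Strap (0.90 each). Pcx was closest to Masp1, a protease of the lectin complement pathway (0.96), then Hs6st1 and Pigt (0.94 each). Fbp1 was closest to Colgalt1 (0.89), Zdhhc12 (0.86) and Cirbp (0.85), Slc37a4 to Sdhaf1 (0.88), Slc35b2 (0.86) and Slc2a8 (0.82), and Creb3l3 to Tusc2, Acot8 and Psmc3 (0.95 each). Ppargc1a had weaker partners, Klhl24 (0.74), Zfp281 (0.73) and Marveld2 (0.69).

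For Pck1 and Tat this likeness was much weaker without Old replicate 14. Pck1 was closest to Spin1 (0.93), Cadm4 and Glyctk (0.92 each), and without that library these stood at 0.68, 0.61 and 0.64. Tat was closest to Kynu and Ube2r2 (0.95 each) and Mup3 (0.94), and without it these stood at 0.52, 0.48 and 0.31. Mup3 belongs to a family of near-identical copies, so its level is uncertain.

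Old mice, whose livers held less Pck1 RNA, made more glucose under insulin. Glucose production during the clamp, in the labels' units, was 2.91 ± 1.14 in Young mice (SD, n = 8) and 9.66 ± 2.24 in Old mice (SD, n = 10), 3.31 times as high, and the ages did not overlap, with a highest Young value of 4.42 and a lowest Old value of 5.62 (two-sided exact permutation p = 4.57e-05). Basal production was 15.2 ± 1.69 and 17.2 ± 1.33, 1.13 times as high in Old mice (two-sided exact permutation p = 0.0167). Because the ages form separate clusters in clamp production, each gene was set against it within an age only.

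Within an age, none of the 8 genes passed a test of following glucose production. With age and kit in the limma model, 0 of 13895 genes had a slope on clamp production (0%, with 1067 or 7.68% at an unadjusted p under 0.05) and 0 on basal production (0%, with 168 or 1.21%), and 0 of the 8 did so at an unadjusted p under 0.05. The Pck1 slope was 0.09 ± 0.06 on the log2 scale per label unit of clamp production (SE, limma adjusted p = 0.672), with a 95% interval from -0.03 to 0.22, and -0.12 ± 0.07 per unit of basal production (limma adjusted p = 1.00). Its 95% interval on basal production was -0.28 to 0.03. Tat had slopes of 0.12 ± 0.07 (limma adjusted p = 0.672) and -0.14 ± 0.09 (1.00), with 95% intervals from -0.04 to 0.27 and from -0.33 to 0.05. Leaving out Old replicate 14, the clamp slopes were 0.04 for Pck1 (limma adjusted p = 0.852) and 0.04 for Tat (0.798), and the basal slopes -0.06 and -0.05 (1.00 each). With each library left out in turn, clamp slopes ran from 0.04 to 0.15 for Pck1 and from 0.04 to 0.17 for Tat, with 0 called. On clamp production, 1 of the 8 had an unadjusted p under 0.05 in limma with array weights. The same count was reached without Old replicate 5, Old replicate 15 or Young replicate 13.

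The 32 correlations of the 8 genes with clamp or basal production within an age gave 0 calls by either measure after adjustment over the 32, with 0 by Pearson's r and 1 by Spearman's rho at an unadjusted p under 0.05. That one was Fbp1 with clamp production in Young livers (rho = -0.79, exact permutation p = 0.0279, adjusted 0.640). Its r was -0.57 (exact permutation p = 0.150), and -0.72 without the 2 farthest mice. With the kit means of Young livers subtracted, this r was -0.29 (exact permutation p = 0.289, adjusted 0.962). In Old livers Ppargc1a had r = 0.61 with clamp production (permutation p = 0.0560, adjusted 0.865), and 0.35 without the 2 farthest mice. Old Pck1 and Tat had r = 0.38 and 0.43 with clamp production (permutation p = 0.338 and 0.280, each adjusted 0.989), and 0.70 and 0.73 without the 2 farthest mice. Each kit holds 5 or fewer mice of an age, under the 6 needed for a correlation within it. With the kit means subtracted within an age, 0 of the 32 relations passed and 1 had an unadjusted p under 0.05, Creb3l3 with clamp production in Young livers (r = -0.76, exact permutation p = 0.0222, adjusted 0.711). With the kit left in, that r was -0.70 on scaled TPM, and its sign turned with TPM as deposited.

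**Figure D5:**
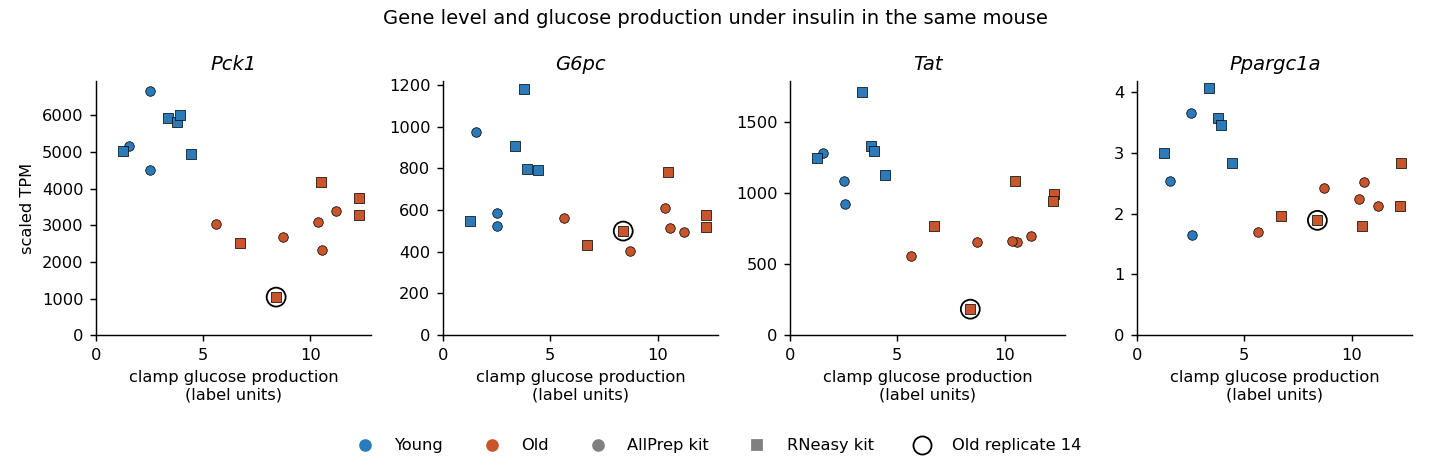
Scaled TPM of Pck1, G6pc, Tat and Ppargc1a (vertical axes) against glucose production during the clamp in the same mouse (horizontal axes, label units), blue for 8 Young and orange for 10 Old mice, with the kit as the symbol and Old replicate 14 ringed. Young mice lie at 4.42 or less and Old mice at 5.62 or more, so that a line through both ages would only restate the age difference.

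A label named for liver pyruvate carboxylase was not set against Pcx. In 16 of 18 mice it equalled the percent suppression of glucose production multiplied by another label, within 0.05, so that it repeats the suppression. In Old replicate 17 it was 38.6 against a product of 25.4, and in Old replicate 18 it was 1.71 against 34.3.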

How the data were processed

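RNA sequencing of 18 mouse livers was deposited as TPM by the authors, in a table of 18946 genes. Per the submitters' processing notes STAR 2.7.9a, Subread, featureCounts and the builds GRCm39 and mm10 were used, with no role given. Which gene lengths, annotation and strand setting were used is not given in the sources used here: overlapping, antisense and near-identical genes are therefore uncertain, and coordinates are given only for RefSeq promoter windows. Groups, kits and mice came from the labels and protocols.

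Deposited TPM was divided by composition factors (trimmed mean of log ratios, 30% of log ratios and 5% of levels trimmed). A gene was tested if 8 or more libraries had 0.5 TPM or more. The test was limma 3.58.1 (R 4.3.3, variance trend) on log2(scaled TPM + 0.5), modelling age and kit. Benjamini-Hochberg adjusted p-values over all 13895 genes under 0.05 were called. Fold changes are on that scale and understate changes of low genes. TPM ratios between libraries gave whole reads for 18946 of 18946 genes (100% within 0.0001), used for read totals and limma-voom. The read recovery, the limma fits of age and clamp slope, and the correlation tests were tried on simulated data. Composition factors, library weights, limma-voom and the body weight term were not. Correlations used permutations, exact in Young and 100000 in Old mice (Python 3.11.15, numpy 2.4.6, pandas 2.3.3, scipy 1.17.1; plots with matplotlib 3.10.9). Spread between mice is biological and technical together.

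The 8 genes, the pathway lists and the tests were chosen with earlier results of these data known. Named were the 8 genes, every called gene of the lists, 12 further genes whatever their result (1 gene that met the rule is not reported here and was left out of the lists), and the 3 genes most like each of the 8; Foxa2, Hgd, Apoa5, Hamp, Creb3, Creb3l1, Creb3l4, Irs2 and Pdk4 were added after their values were seen. Alternatives changed the scaling, pseudocount, filter, kit term, library weights, test, kits, body weight term and each library in turn, and RNeasy without Old replicate 14 and correlations with the kit means of an age subtracted (exact permutation within kits) were added after seeing the data.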

Additional observations from a re-analysis of the deposited data

How the results depend on the processing

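No paired analysis was possible because no replicate number is shared between the ages. Pck1 was lower in Old livers in every fit run, and its call was lost with AllPrep alone, with RNeasy alone, with RNeasy without Old replicate 14 (added after seeing the data) and with body weight as a term. The number of the 8 genes called lower was 3 with array weights, 2 with limma-voom and composition factors, and 0 with RNeasy alone (4 at an unadjusted p under 0.05), with RNeasy without Old replicate 14 (4) and with the body weight term (2); leaving out 1 library gave 1 to 3. The causes were not tested, and single kits also hold fewer samples.

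Small differences changed sign, and so did some correlations with clamp production. Fbp1 was 0.013 with no composition factor; Pcx was -0.070 with RNeasy, -0.033 with RNeasy without Old replicate 14, -0.013 with limma-voom and composition factors, and -0.31 with body weight, and -0.080 to 0.054 with 1 library left out; Creb3l3 was 0.089 with RNeasy without Old replicate 14 and 0.045 with body weight. Slopes on clamp production with no kit term were -0.0066 for Fbp1, -0.0014 for Pcx and 0.0023 for Creb3l3, and with array weights -0.0020 for Fbp1 and -0.011 for Pcx. Slopes on basal production with no kit term were -0.0093 for Pcx and 0.0034 for Ppargc1a, and with array weights 0.0011 for Fbp1. With 1 library left out, clamp slopes ran from -0.0043 to 0.031 for Fbp1, -0.026 to 0.020 for Slc37a4 and -0.033 to 0.030 for Creb3l3, and basal slopes from -0.015 to 0.0077 for Fbp1, -0.045 to 0.0022 for Ppargc1a and -0.053 to 0.0012 for Creb3l3. With TPM as deposited, the Young correlations with clamp production were 0.21 for Pcx, 0.21 for Slc37a4 and 0.15 for Creb3l3. With scaled TPM they were -0.10, -0.27 and -0.70, so the change for Creb3l3 was large.

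Over all tested genes, 339 were higher and 343 lower, against 704 and 697 with array weights, 341 and 188 with no composition factor, 264 and 413 with limma-voom and composition factors, 98 and 55 with AllPrep, 7 and 7 with RNeasy, 35 and 29 with RNeasy without Old replicate 14, and 3 and 0 with body weight. With 1 library left out the fits called 176 to 510 higher genes, most without Old replicate 14. Slopes on basal production were called for 141 and 105 genes with array weights. Of the 8 genes the shallowest, Ppargc1a, had 889 reads or more in each library. With the kit means subtracted (added after seeing the data), 1 of 56 correlations between the genes and 0 of 32 with glucose production were called, as many as before, but Fbp1 with Pcx was no longer the pair called.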
